A study of Homo sapiens with 12 samples.

Results

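Gene expression was compared between degron (++) and degron (−) cells that had received 4 Gy and were collected at 48 h, with 2 RNA sequencing libraries of each population. These 4 libraries were chosen by their labels, and they are part of a series of 12 libraries in 6 groups of 2. PANC-1 is a human cell line from a pancreatic ductal carcinoma. In the study it was infected with a retrovirus that carries ZsGreen, a green fluorescent protein, fused to the degron of ornithine decarboxylase (ODC), so the reporter was shared by every group. The infected line as a whole was called degron (−), and degron (++) cells were the brightest cells of a line that had been made by repeated sorting and culture of ZsGreen-positive cells. The populations therefore differed in sorting and culture history as well as in the signal of the reporter. The other groups used here are both populations at 30 h with 4 Gy, and both populations at 48 h with 0 Gy. No label gives the event from which hours were counted, or whether the replicates were separate cultures, so the p-values measure the spread between these libraries, which may be technical. The degron (−) libraries are ZsGreen-negative by title and carry "d+" in their descriptions, and they were grouped by title. In the gene table of the study, the degron (−) values of KRT13 (3.89) and TNFRSF11B (4.48) equal the means of the libraries so titled at 48 h with 0 Gy. The question was which genes differ between the populations at the later time, and whether that difference itself is larger or smaller than at 30 h or without irradiation.

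The proteasome is a multi-subunit protease that degrades proteins marked for removal. ODC, the first enzyme of polyamine synthesis, is unusual in that its carboxyl-terminal degron is recognised by the proteasome without ubiquitin. ZsGreen fused to this degron accumulates where proteasome activity is low, a property used to enrich cancer stem-like cells. Ionising radiation breaks DNA, and cells respond through checkpoint arrest, repair and changes in the expression of cell cycle and death genes.

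The deposited values are fragments scaled to exon length and to the number of mapped reads (FPKM) for 23284 gene symbols per library. They hold no read counts, so the depth behind each value is unknown. FPKM summed to between 883473 and 916877 in degron (++) libraries and to between 746137 and 752097 in degron (−) libraries, and MIR622 alone held 29.6% to 29.8% and 25.5% to 27.1% of it. On the log2(FPKM + 1) scale the correlation across the tested genes was 0.982 between the degron (++) replicates, 0.972 between the degron (−) replicates and 0.840 to 0.852 between libraries of different populations. Across genes, which are not independent replicates, the libraries thus lay closer to those of their own population. Because these are bulk libraries, fewer cells that express a gene and less RNA per cell cannot be told apart in any result that follows.

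A total of 12544 genes had FPKM of at least 1 in at least 2 of the 4 libraries. Of these, 9767 (77.9%) differed between the populations at an adjusted p under 0.05 (limma, Benjamini-Hochberg adjustment over all genes tested). Expression was higher in degron (++) cells for 4751 genes (37.9%) and lower for 5016 genes (40%). With so large a background, passing the test says little of a gene, and sizes and counts are given beside it. The shares of 37.9% higher and 40% lower are the background for each count of list members at 4 Gy and 48 h that follows. A gene under 1 FPKM in both libraries of 1 population passed the filter only through the other population, which fixed its direction. The median log2 fold change of all tested genes, degron (++) minus degron (−), was -0.01. When each library was rescaled to the same sum (TPM), the median moved to -0.25, and 3001 genes were higher and 6429 lower. Genes higher in degron (++) cells then made up 31.8% of those past the threshold, compared with 48.6% on the FPKM scale and 53% after quantile normalization.

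The large differences lay mostly on the side of lower expression in degron (++) cells. A log2 fold change of at least 2 was reached by 177 genes in the higher and 544 in the lower direction. At a size of 4, 97 genes were lower, 6 of them with symbols of small or uncharacterised RNA genes. All 8 genes that were higher at that size had such symbols. FPKM of at least 5 in both degron (−) libraries with at most 0.5 in both degron (++) libraries was found for 198 genes, and the opposite pattern for 10. In the scatter of the 2 populations these genes lie along the lower edge, with few along the left edge.

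**Figure D1:**
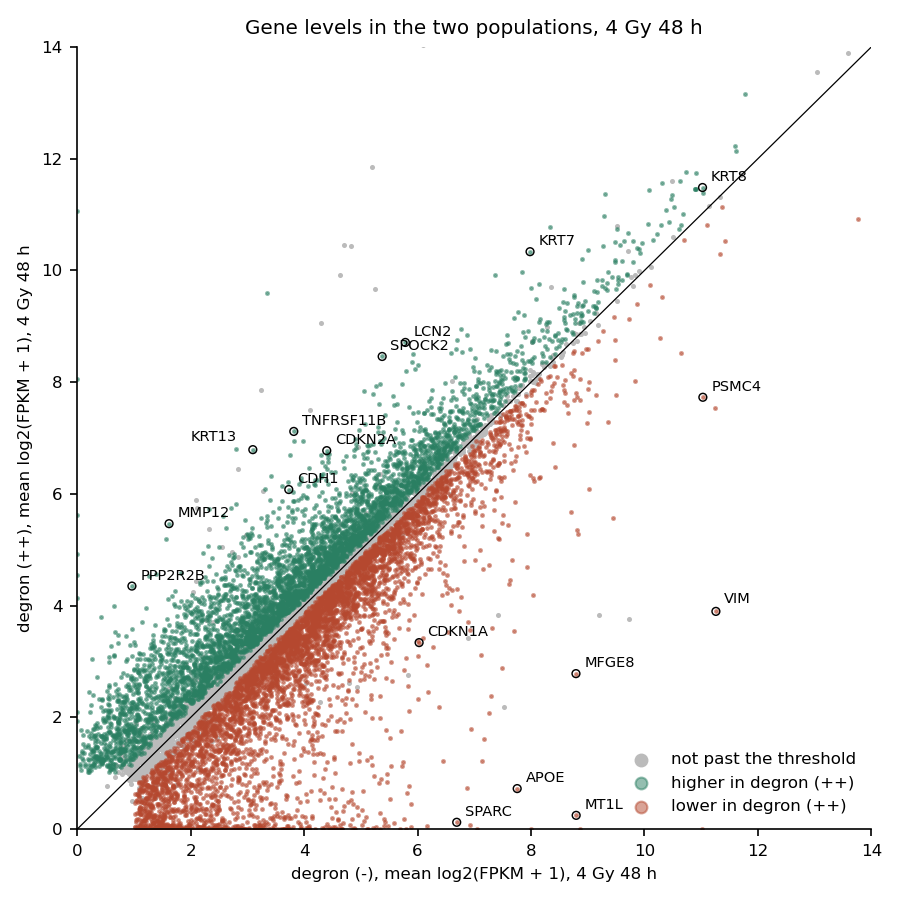
Mean log2(FPKM + 1) of 2 degron (−) libraries (horizontal axis) and 2 degron (++) libraries (vertical axis) at 4 Gy and 48 h, with each point a tested gene, the line marking equal levels and circles marking genes named on the plot. Of the colored genes, 4751 lie above the line and 5016 below it, and those far from the line are mostly below, such as VIM and SPARC; 2 genes with a mean beyond 14 are not drawn.

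MMP12, a macrophage elastase that cleaves extracellular matrix, had the largest log2 fold change among the genes named in the higher direction. Its FPKM were 41.4 and 45.2 in the degron (++) libraries and 1.75 and 2.43 in the degron (−) libraries. The ratio of the means was 20.7, and the log2 fold change was 3.85 (standard error, SE, 0.166; limma adjusted p = 3.06e-08). KRT13, a type I keratin of stratified epithelia that the study took forward, had 108 and 112 FPKM in degron (++) and 6.38 and 8.89 in degron (−) cells. The libraries of the populations did not overlap, and the log2 fold change of KRT13 was 3.70 (SE 0.228, limma adjusted p = 3.3e-07). TNFRSF11B, which encodes osteoprotegerin, a soluble decoy receptor for RANKL and TRAIL, had 134 and 142 FPKM against 11.8 and 14.6. The other genes in the first 10 were TNNC1, NMU, PPP2R2B, C8orf4, MFAP5, LUM and DEFB1, with log2 fold changes of 3.19 to 3.62. C8orf4 had 12.7 and 13.1 FPKM in degron (++) and 0.217 and 0.469 in degron (−) cells, and PPP2R2B, a regulatory subunit of protein phosphatase PP2A, had 19.8 and 19 against 0.838 and 1.07. The table of the study holds 10 genes, which were chosen on libraries of this series and are not independent evidence of a direction. Its FPKM for MMP12 (39.69 and 1.17) and KRT13 (83.22 and 3.89) equal the means at 48 h with 0 Gy, so they are values of unirradiated cells. Of these 10 genes, 10 were higher at 4 Gy and 48 h, with log2 fold changes between 1.66 for MUC16 and 3.85 for MMP12.

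Among abundant genes, with a mean of at least 100 FPKM in the higher group, the largest log2 fold changes after those of KRT13 and TNFRSF11B were found for IGFBP3, SPOCK2 and FOLR1. IGFBP3 binds insulin-like growth factors in the extracellular space, and its FPKM were 122 and 123 in degron (++) and 11.6 and 14.8 in degron (−) cells. SPOCK2, a secreted proteoglycan, was the most abundant of them at 337 and 366 against 37.5 and 43.7 FPKM, a log2 fold change of 3.08 (SE 0.118, limma adjusted p = 1.45e-08). FOLR1, a folate receptor, had 104 and 101 FPKM in degron (++) against 12.7 and 12.4 in degron (−) cells. In each of these genes every degron (++) library was several times above every degron (−) library.

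In the lower direction, an abundant transcript concerned was VIM, which encodes vimentin, the intermediate filament protein of mesenchymal cells. VIM had 14.6 and 13.2 FPKM in the degron (++) libraries and 2529 and 2376 in the degron (−) libraries. The ratio of the means was 176 in favour of degron (−), and the log2 fold change was -7.36 (SE 0.0664, limma adjusted p = 9.1e-12). PPP1R14A, an inhibitor of myosin phosphatase, was listed at 0 in both degron (++) libraries and had 269 and 242 FPKM in degron (−) cells. MT1L, a locus of the metallothionein family that can share reads with its near-identical relatives, was at 0.406 and 0 against 437 and 449.8 FPKM. APOE, the lipid transport protein, was at 0.546 and 0.767 against 226 and 205 FPKM, and CD70, a ligand of the tumor necrosis factor family, at 0 and 0.118 against 122 and 120.2. These transcripts were abundant in degron (−) cells and near 0 in degron (++) cells. IGFBP2, FBXO17, PLEKHG2, SPARC and MFGE8 completed the first 10, and MFGE8, a secreted bridge to phosphatidylserine on dying cells, had 5.46 and 6.33 FPKM in degron (++) cells and 445 and 439.5 in degron (−) cells. The plot of single libraries shows the replicates close together and the populations apart for genes in both directions.

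**Figure D2:**
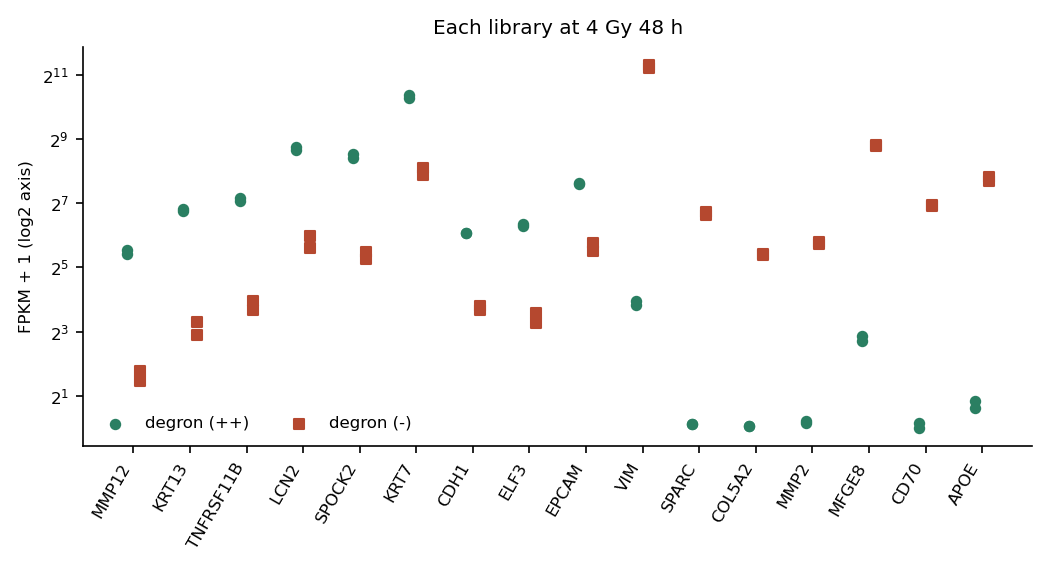
FPKM + 1 on a log2 axis for 16 genes at 4 Gy and 48 h, with a point for each library (circles, degron (++); squares, degron (−); 2 libraries each). The populations do not overlap in any of these genes; MMP12 to EPCAM are higher in degron (++), and VIM to APOE are higher in degron (−).

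Genes of epithelial identity were mostly higher in degron (++) cells. Of 39 tested genes of epithelial junctions and identity, 37 were higher, 1 was lower and 1 did not pass the test, with a median log2 fold change of 1.70 beside -0.01 for all genes. CDH1, which encodes E-cadherin of adherens junctions, had 66.6 and 66.6 FPKM in degron (++) cells and 11.7 and 12.8 in degron (−) cells, a log2 fold change of 2.35 (SE 0.053, limma adjusted p = 4.62e-10). ELF3, an epithelial transcription factor, was at 77.9 and 80.3 against 8.6 and 10.9 FPKM, and it had the largest difference on the list (log2 fold change 2.90). MAL2 and RAB25, both of apical membrane traffic, had log2 fold changes of 2.65 and 2.29. The exception was SPINT2, an inhibitor of serine proteases, at 303 and 322 FPKM in degron (++) and 332 and 349 in degron (−) cells. GRHL1 was at 1.35 and 1.32 against 1.25 and 1.8 FPKM and did not pass the test. OCLN, the tight junction protein occludin, passed with a small log2 fold change of 0.25, which was 0.03 after TPM rescaling.

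Among 11 tested keratins, the intermediate filament proteins of epithelia, 10 were higher in degron (++) cells, with a median log2 fold change of 0.82. KRT7, a keratin of simple and ductal epithelia, had 1247 and 1338 FPKM in degron (++) cells and 233 and 273 in degron (−) cells (log2 fold change 2.35). The most abundant keratins differed less: KRT8 had 2753 and 2981 FPKM against 2045 and 2118, and KRT18 had 2758 and 2889 against 1905 and 1962. KRT81, whose reads can be shared with close hair keratins, had 101 and 104 FPKM and 15.9 and 22. KRT19 lay at 829 and 899.6 against 756 and 718, a log2 fold change of 0.23 that became -0.04 after TPM rescaling and -0.10 after quantile normalization. KRT15, at 7.54 and 7.16 FPKM in degron (++) and 7.27 and 7.88 in degron (−) cells, was the keratin that did not pass the test. The keratin difference was thus large for KRT13, KRT7, KRT81 and the weakly expressed KRT17, and small for the keratins that make up most of the keratin transcripts.

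Mesenchymal and epithelial-mesenchymal transition genes went the other way, with a median log2 fold change of -2.00. Of 20 tested members, 15 were lower in degron (++) cells and 5 were higher, and 13 of the 33 members were not tested. SPARC, a matrix-binding glycoprotein, had 0.078 and 0.098 FPKM in degron (++) and 105 and 99.2 in degron (−) cells (log2 fold change -6.57, SE 0.0718, limma adjusted p = 9.43e-12). MMP2, a gelatinase, was at 0.112 and 0.157 against 54.5 and 52 FPKM, and the fibrillar collagen gene COL5A2 at 0.039 and 0.037 against 42.1 and 40.7. ZEB1, a repressor of epithelial genes, had 0.048 and 0.045 FPKM in degron (++) and 8.37 and 8.29 in degron (−) cells. These genes were near 0 in degron (++) cells and expressed in degron (−) cells. They passed the filter through degron (−) cells alone, so their direction was fixed by it, and the count and the median include them. FOXC2 and COL6A2, which passed the filter in the same way, were listed at 0 in both degron (++) libraries. In degron (−) cells FOXC2 had 12.2 and 11.7 FPKM, and COL6A2 had 10.6 and 10.4. The list did not move as a whole, since FN1 (fibronectin, log2 fold change 2.53), CDH2 (N-cadherin, 2.15), THBS1 (thrombospondin 1, 1.66), SNAI2 (the repressor Slug, 1.38) and AXL (a receptor kinase, 0.61) were higher in degron (++) cells. CDH2, whose product replaces E-cadherin in many mesenchymal cells, had 42.8 and 44.7 FPKM against 8.43 and 9.68, so both cadherin genes were higher in the same population.

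Promoter sequence is shown for genes of each direction, because the products of ZEB1 and SNAI2, which are described above, are known to bind the E-box CACCTG. The 250 bases before the gene start were taken from RefSeq (GRCh38.p14, whereas the files use hg19), 5′ to 3′ on the strand of the gene, with each CACCTG on either strand (CAGGTG on the other) in capitals. ELF3 lies on the plus strand (chr1:202010337-202010586), RAB25 on the plus strand (chr1:156060910-156061159), VIM on the plus strand (chr10:17227991-17228240) and SPARC on the minus strand (chr5:151686916-151687165).
ELF3: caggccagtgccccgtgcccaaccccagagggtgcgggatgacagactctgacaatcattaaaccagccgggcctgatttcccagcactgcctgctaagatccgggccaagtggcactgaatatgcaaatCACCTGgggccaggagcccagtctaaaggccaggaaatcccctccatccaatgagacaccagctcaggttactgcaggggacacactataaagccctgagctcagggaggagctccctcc
RAB25: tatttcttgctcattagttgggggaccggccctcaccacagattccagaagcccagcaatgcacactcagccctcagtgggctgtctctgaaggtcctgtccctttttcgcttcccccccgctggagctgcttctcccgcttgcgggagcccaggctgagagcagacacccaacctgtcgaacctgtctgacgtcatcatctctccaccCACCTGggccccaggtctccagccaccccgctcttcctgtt
VIM: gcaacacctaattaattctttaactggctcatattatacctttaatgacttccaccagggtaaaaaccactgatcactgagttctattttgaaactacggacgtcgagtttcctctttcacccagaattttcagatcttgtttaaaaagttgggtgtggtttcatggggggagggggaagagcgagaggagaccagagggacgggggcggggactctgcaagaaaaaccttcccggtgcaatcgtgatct
SPARC: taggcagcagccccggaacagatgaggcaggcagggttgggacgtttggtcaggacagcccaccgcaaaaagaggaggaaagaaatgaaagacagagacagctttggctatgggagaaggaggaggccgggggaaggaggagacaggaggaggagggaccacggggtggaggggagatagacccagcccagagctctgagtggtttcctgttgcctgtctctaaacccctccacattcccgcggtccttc
ELF3 and RAB25 each hold 1 CACCTG, which begins 120 and 41 bases before the start, and the VIM and SPARC windows hold 0. The motif is in 17.5% of the 35114 promoters of the table searched in the same window. The windows hold 4 CG dinucleotides in ELF3, 8 in RAB25, 8 in VIM and 7 in SPARC, below the median of 11 over all these promoters. The letters describe the windows only, and no binding or methylation was measured in these data.

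Basement membrane and integrin genes differed in both directions, with 15 of 26 tested members higher, 10 lower and a median log2 fold change of 0.56. Genes of epithelial anchorage were among the higher ones. The laminin chain genes LAMA3 and LAMB3 passed, with LAMA3 at 137 and 137 FPKM in degron (++) against 38.8 and 42.8 in degron (−) cells and LAMB3 at 119.9 and 125 against 36.9 and 42. ITGB4, a laminin receptor subunit, was at 57.8 and 57.8 against 11.9 and 14.3 FPKM (log2 fold change 2.07). ITGB6, the epithelial integrin that activates latent TGF-beta, had a log2 fold change of 2.26, and the collagen IV genes COL4A4 and COL4A5 had 2.75 and 1.78. The fibronectin receptor subunit ITGA5 was lower, at 1.4 and 1.04 FPKM against 37.1 and 34 (log2 fold change -4.04), although FN1 itself was higher. ITGB5 and HSPG2 (perlecan) were lower with -1.52 and -1.40, and ITGB3 was listed at 0 in both degron (++) libraries against 3.41 and 2.88 FPKM.

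The proteasome subunit genes, which bear on the reporter used for sorting, showed no common direction. Of 31 tested, 16 were higher in degron (++) cells, 11 were lower and 4 did not pass, with a median log2 fold change of 0.14 that became -0.13 after TPM rescaling, with 8 higher and 16 lower. PSMC4, an ATPase of the regulatory particle, stood apart at 213 and 209 FPKM in degron (++) and 2131 and 2049 in degron (−) cells, a log2 fold change of -3.30 (SE 0.0433, limma adjusted p = 1.74e-11). The other lower members had log2 fold changes down to -0.79, for the core subunit PSMB1, and the higher members reached 0.80, for PSMB3. PSMC4 lies on chromosome 19q13, as do PLEKHG2 and FBXO17, which were named above among the genes with the largest negative log2 fold changes. PLEKHG2 was at 1.27 and 1.38 FPKM against 143 and 138, and FBXO17 at 0.585 and 0.743 against 116 and 116. An amplification in this region is known in PANC-1, and the copy number in these cells was not tested.

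The gene of the enzyme whose degron forms the reporter was near equal. ODC1 had 247 and 243 FPKM in degron (++) and 221 and 223 in degron (−) cells, a log2 fold change of 0.14 that was -0.12 after TPM rescaling. AZIN1 and OAZ1, the antizyme inhibitor and the antizyme that control ODC turnover, did not pass the test. AZIN1 was at 59.9 and 59.2 against 61.2 and 60.7 FPKM, and OAZ1 at 404 and 445 against 461 and 440.0. ODC1, AZIN1, OAZ1 and the 19q13 genes were singled out after their values were seen. Of 20 genes of the immunoproteasome and antigen presentation, 13 were higher and 4 lower, with a median of 0.31 (7 higher and 6 lower after TPM rescaling). The inducible catalytic subunits PSMB8 and PSMB9 had log2 fold changes of 0.72 and 0.75, the activator subunit PSME1 one of 1.02 and ERAP2, a peptide-trimming aminopeptidase, one of 1.5. TAP1, a peptide transporter, was lower at 22.8 and 24.8 against 36 and 35.7 FPKM.

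**Figure D3:**
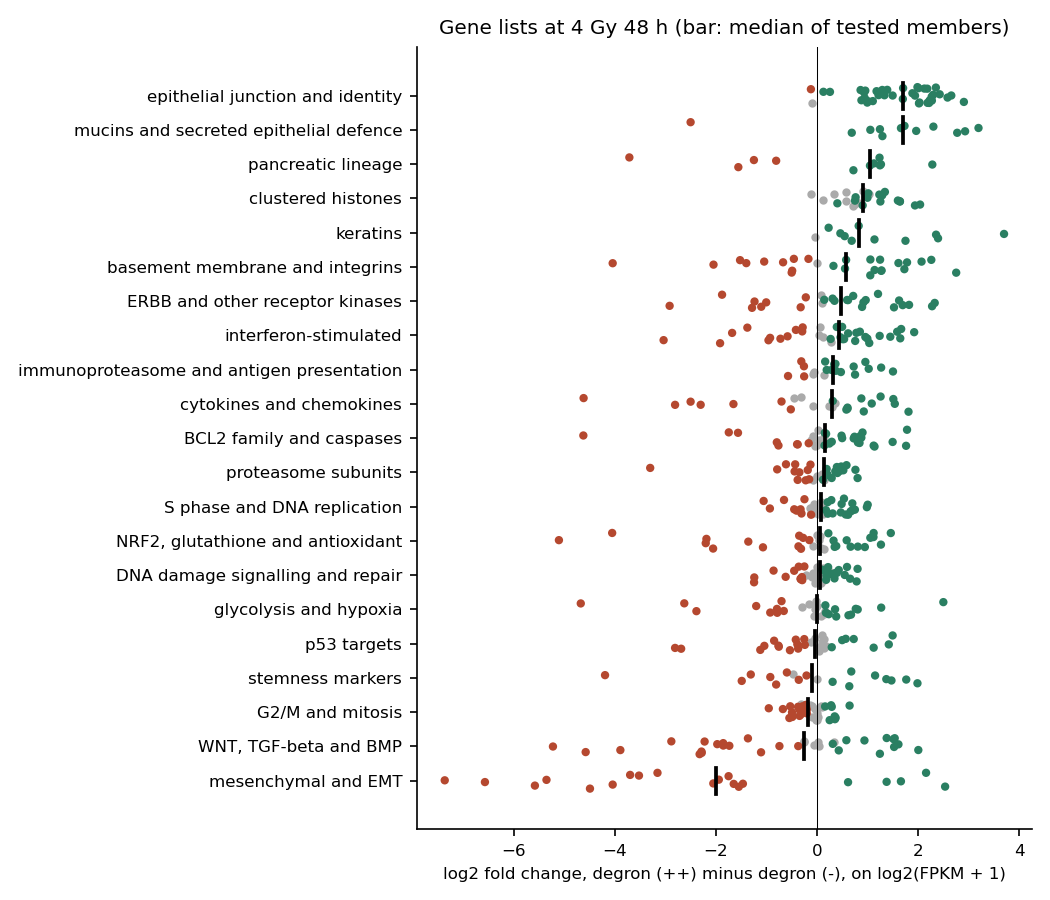
Log2 fold change at 4 Gy and 48 h (degron (++) minus degron (−), horizontal axis) of each tested member of 21 gene lists (rows), colored green where higher, red where lower and gray where the adjusted p was not under 0.05, with a black bar at the median of the list. Medians run from -2.00 for mesenchymal genes to 1.70 for epithelial junction genes, and most other lists spread to both sides of 0.

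The p53 target genes did not share a direction at 4 Gy and 48 h, with 7 of 29 tested members higher, 13 lower and 9 not passing, and a median log2 fold change of -0.03 (0.03 after quantile normalization, with 9 higher and 10 lower; 6 higher and 17 lower after TPM rescaling). CDKN1A, the inhibitor p21 that arrests the cell cycle, had 9.42 and 8.82 FPKM in degron (++) cells and 67 and 61.6 in degron (−) cells. This was a log2 fold change of -2.69 (SE 0.0868, limma adjusted p = 5.06e-09). GDF15, a stress-induced cytokine, was at 1.96 and 1.17 against 17.4 and 16.1 FPKM (log2 fold change -2.81). PLK2 and PHLDA3 were the largest in the other direction, with 257 and 247 against 85.1 and 92.4 FPKM for PLK2, a kinase of centriole duplication, and 35 and 35.3 against 10.6 and 14.8 for PHLDA3, an inhibitor of AKT. PMAIP1 and FAS, which promote apoptosis, had log2 fold changes of 1.12 and 0.72, and MDM2, a ubiquitin ligase, was at 11.5 and 11.4 FPKM in degron (++) and 11.2 and 10.05 in degron (−) cells.

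These differences were also present at 30 h and without irradiation. CDKN1A had log2 fold changes of -3.05 at 30 h with 4 Gy and -3.11 at 48 h with 0 Gy, and GDF15 had -3.27 and -3.12. For neither gene did the difference at 4 Gy and 48 h depart from these past the threshold: the adjusted p was 0.158 against 30 h and 0.189 against 0 Gy for CDKN1A, and 0.405 and 0.647 for GDF15 (limma, contrasts of the differences). None of the 29 tested p53 targets passed either of these tests. The background for these tests was 3.55% of all genes against 30 h and 0.143% against 0 Gy. In degron (−) cells GDF15 was at 10.2 and 10.9 FPKM without irradiation, 13.8 and 15.7 at 30 h with 4 Gy and 17.4 and 16.1 at 48 h with it, and in degron (++) cells it was at 0.255 and 0.414 without irradiation, 0.972 and 0.339 at 30 h and 1.96 and 1.17 at 48 h. The degron (−) libraries thus lay above every degron (++) library in each condition.

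**Figure D4:**
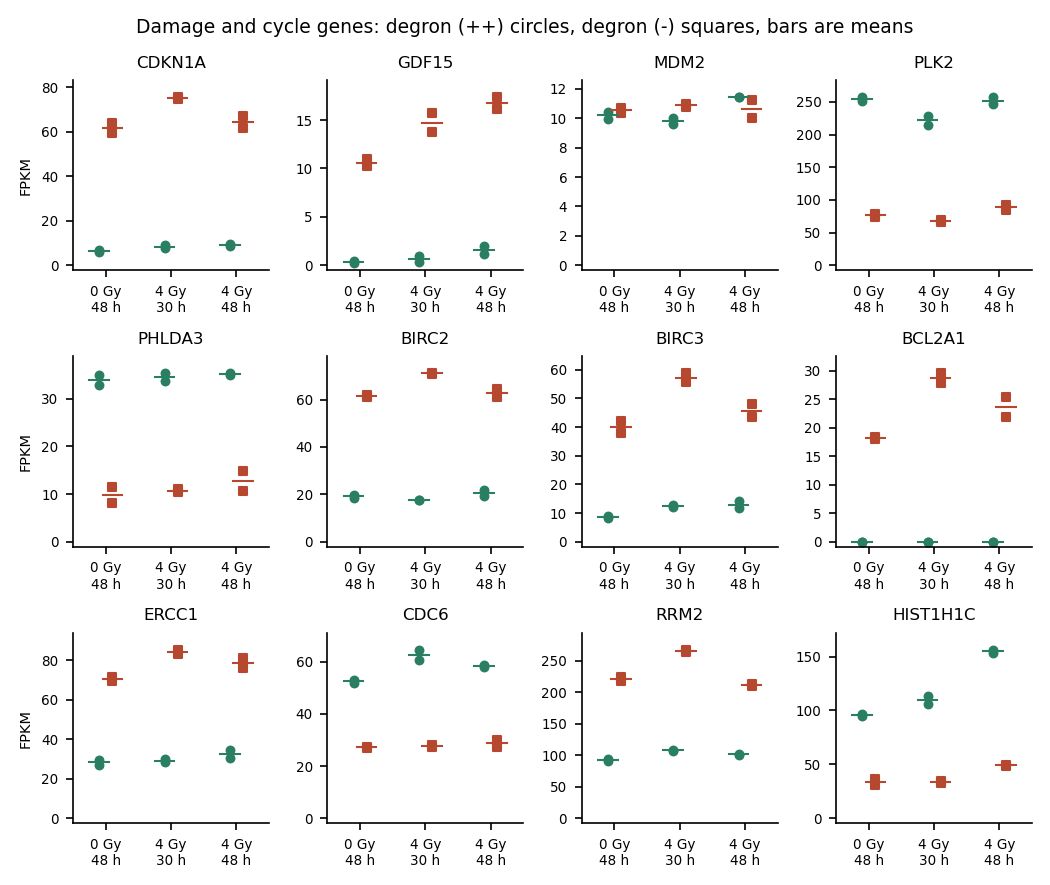
FPKM (vertical axes, linear scale) of 12 damage, death and cycle genes in each of the 12 libraries at 0 Gy 48 h, 4 Gy 30 h and 4 Gy 48 h (circles, degron (++); squares, degron (−); bars, mean of 2 libraries). The order of the populations is the same in all 3 conditions for CDKN1A, GDF15, PLK2 and BIRC3, whereas MDM2 lies at similar levels throughout.

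Cell cycle genes differed in both directions. Of 36 tested G2/M and mitosis genes, 8 were higher in degron (++) cells, 17 lower and 11 did not pass, with a median log2 fold change of -0.17 and extremes of -0.96 for the checkpoint kinase BUB1 and 0.64 for the phosphatase CDC25B. After TPM rescaling this list had 1 higher and 27 lower members and a median of -0.43. Of 38 S phase genes, 16 were higher and 9 lower, with a median of 0.07 that was -0.19 after TPM rescaling, with 10 higher and 19 lower. CDC6, which loads the replicative helicase, had 57.8 and 58.9 FPKM in degron (++) and 27.5 and 29.9 in degron (−) cells, and RRM2, a subunit of ribonucleotide reductase, had 101 and 102 against 211 and 214. The clustered histone genes, which can share reads with near-identical copies and are uncertain for that reason, included 15 of 25 higher and 0 lower (13 higher and 1 lower after TPM rescaling), with a median of 0.91. HIST1H1C, a linker histone gene, was at 156 and 153 FPKM against 48.8 and 49.3.

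Among 46 genes of DNA damage signalling and repair, 16 were higher in degron (++) cells, 11 lower and 19 did not pass. The median was 0.05, and -0.19 after TPM rescaling, with 6 higher and 22 lower. ERCC1, an endonuclease subunit of nucleotide excision repair, had 30.6 and 34.7 FPKM in degron (++) and 81.2 and 76.1 in degron (−) cells (log2 fold change -1.25). MDC1, whose product gathers at double-strand breaks, was lower with -1.24, as was the kinase gene ATM with -0.62. The helicase gene WRN, the ligase gene LIG1 and the recombination genes BRCA2 and BRCA1 were higher, with 0.80, 0.78, 0.65 and 0.59. The balance of higher and lower repair genes thus depended on the scaling.

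Of 35 tested genes of the BCL2 family and the caspases, 19 were higher in degron (++) cells and 8 lower, with a median of 0.15 (-0.10 after TPM rescaling, with 14 higher and 13 lower). The inhibitors of cell death held the largest negative values. BCL2A1, an anti-apoptotic BCL2 relative, was listed at 0 in both degron (++) libraries and at 25.5 and 21.9 FPKM in degron (−) cells. BIRC3 and BIRC2 are inhibitors of apoptosis that act in NF-kappaB signalling, and BIRC3 was at 14.2 and 11.8 against 47.9 and 43.6 FPKM. BIRC2 was at 22 and 19.2 against 64.3 and 61 FPKM. BCL2L1, which encodes BCL-XL, had a log2 fold change of -0.80. On the other side were BIK, a pro-apoptotic BH3-only gene (22.6 and 25.4 against 5.43 and 7.2 FPKM, log2 fold change 1.78), and the inflammatory caspase genes CASP1 (1.76) and CASP4 (1.49). BAK1, a pore-forming effector, was lower with -0.76.

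Cytokine, interferon and antioxidant genes were also split. CCL2, a monocyte chemoattractant, had 6.24 and 6.46 FPKM in degron (++) and 179 and 179 in degron (−) cells, a log2 fold change of -4.62 (SE 0.276, limma adjusted p = 2.69e-07). CXCL1 and CSF1 were lower with -2.50 and -1.65, and IL6, CXCL2 and CXCL16 were higher with 1.51, 1.54 and 1.81, which gave 11 higher and 7 lower among 24 tested (9 and 10 after TPM rescaling). Of 34 interferon-stimulated genes, 19 were higher and 11 lower, with a median of 0.43. BST2, which tethers budding viruses, had 110.2 and 115 FPKM against 25.5 and 33, and MX2, an antiviral GTPase, had 0.225 and 0.512 against 10.2 and 10.1. Of 31 tested genes of the NRF2 and glutathione systems, 13 were higher and 12 lower, with a median of 0.06 (-0.01 on quantile-normalized values, and -0.20 on TPM values with 10 higher and 17 lower). GSTT1 and GSTM3, glutathione transferases, were listed at 0 in both degron (++) libraries, and in degron (−) cells they had 34.3 and 32.5 FPKM (GSTT1) and 15.3 and 15.9 FPKM (GSTM3). Catalase (CAT) and heme oxygenase 1 (HMOX1) were lower with -2.20 and -2.19, whereas thioredoxin (TXN, 1.46) and the peroxiredoxins PRDX6 (1.26) and PRDX2 (1.11) were higher.

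The stemness markers, which bear on the use of the reporter, included 8 of 18 tested genes higher in degron (++) cells and 8 lower. Over all tested genes, 37.9% were higher and 40% lower. CD44, a hyaluronan receptor used as a surface marker of stem-like cells, had 119 and 119 FPKM in degron (++) and 342 and 330.0 in degron (−) cells, a log2 fold change of -1.49 (SE 0.036, limma adjusted p = 7.22e-10). The value is for the gene, and its splice forms are not separated. CD24 was at 63.4 and 69.1 against 171 and 161 FPKM, and NES, which encodes nestin, at 3.41 and 3.75 against 84.8 and 80.6. EPCAM, an adhesion molecule, was higher at 195 and 196 against 44.8 and 52.8 FPKM, as was the aldehyde dehydrogenase gene ALDH1A3 at 368 and 379 against 107 and 112. Markers in common use thus went in both directions, as tested genes did in general. PROM1, which encodes CD133, was listed at 0 in every library of the series. By flow cytometry, the study reported more cells positive for both CD133 and the CD44 variant CD44v9 in degron (++) than in degron (−) cells. That is a measure of surface protein, whereas the values here are RNA of the whole gene.

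Ductal, secretory and lineage genes were mostly higher in degron (++) cells. Of 12 tested mucin and secreted defence genes, 11 were higher, with a median of 1.69. LCN2, an iron-sequestering lipocalin, had 402 and 434 FPKM in degron (++) and 47.5 and 61.6 in degron (−) cells, and SLPI, a protease inhibitor of secretions, had 304 and 325 against 55.4 and 71.9. AGR2, a disulfide isomerase of mucin-producing cells, was the exception at 23.3 and 25 against 137 and 146 FPKM. Of 11 pancreatic lineage genes, 7 were higher, such as KLF5 (2.28) and FOXA1 (1.12), and 4 were lower. The foregut factor FOXA2 had 0.643 and 0.486 FPKM against 20.5 and 18.5 (log2 fold change -3.71), and PDX1 had -1.56, so the related genes FOXA1 and FOXA2 went in opposite directions.

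Among receptor kinases and their ligands, 16 of 26 tested were higher and 8 lower. ERBB3 and ERBB2 form a signalling pair, and ERBB3 was at 43.2 and 49.5 against 8.2 and 8.66 FPKM. ERBB2 was at 29.1 and 30.8 against 8.28 and 8.86 FPKM, and the EGFR ligand genes EREG and TGFA had log2 fold changes of 1.82 and 1.62. FGFR2 was higher with 2.27 and FGFR1 lower with -1.88. NRG1, the ligand of ERBB3, was lower at 5.41 and 5.21 FPKM in degron (++) against 13.3 and 14.4 in degron (−) cells. Of 33 WNT, TGF-beta and BMP genes, 11 were higher and 16 lower, with a median of -0.27. WNT5A was at 9.13 and 8.64 against 1.43 and 1.51 FPKM and its relative WNT5B at 0 and 0.293 against 40.9 and 42. The BMP-responsive genes ID2 and ID3 were lower with -2.88 and -2.29, and DKK3 with -3.89. Of 30 genes of glycolysis and hypoxia, 11 were higher and 9 lower, with a median of -0.01 (0.02 after quantile normalization, with 11 higher and 13 lower; 6 higher and 14 lower after TPM rescaling). The glucose transporter SLC2A3 had 58 and 58.9 FPKM against 8.87 and 10.2, and BNIP3, a hypoxia-induced mitophagy receptor, had 0.133 and 0.125 against 29.9 and 25.9.

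The labelled cell type was checked against markers of the pancreatic duct and of other cells. Of 8 tested ductal and epithelial markers, 7 were higher in degron (++) cells and SOX9 was lower, and KRT8, KRT18, KRT19 and EPCAM were expressed in all 4 libraries. Acinar, endocrine and endothelial markers had 0 tested genes of 6, 5 and 4. Of 7 fibroblast markers, COL1A1 and LUM were tested, and COL1A1 was lower (0.712 and 0.826 against 38.6 and 38.9 FPKM) whereas LUM was higher (21.8 and 22.4 against 1.23 and 1.6). Of 6 leukocyte markers, CD14 (1.45 and 1.88 against 1.02 and 0.464 FPKM) and CD68, a lysosomal protein (4.05 and 4.37 against 161 and 153 FPKM), were tested. A homozygous deletion of CDKN2A is known in PANC-1. CDKN2A had 105 and 112 FPKM in degron (++) and 21.1 and 19.1 in degron (−) cells, and its 9p21 neighbour CDKN2B had 14.1 and 15.5 against 2.14 and 2.83. MTAP, in the same region, had 17.7 and 16.4 FPKM against 5 and 4.87. These values go against a homozygous deletion in all cells of the libraries of either label. The genotype of the cells was not tested, and the 3 genes were singled out after their values were seen.

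The difference between the populations at 4 Gy and 48 h was then compared with that at 4 Gy and 30 h. For 445 genes (3.55%) the difference itself changed past the threshold (limma, contrast of the 2 differences, 2280 genes at an unadjusted p under 0.05). It was more negative at 48 h for 375 genes and more positive for 70. Of the 375, 353 were genes higher in degron (++) cells at 48 h, and in 366 the degron (−) level was higher at 48 h than at 30 h. The median change from 30 h to 48 h over these genes was 0.47 in degron (−) and -0.07 in degron (++) cells on the log2 scale, beside 0.00 in both populations for all tested genes. Most of these genes were thus higher in degron (++) cells and differed less at the later time, with the change mainly on the side of degron (−). Because the genes were selected by this contrast, the order of the 2 medians is fixed, though not how the change divides between the populations. No unirradiated libraries at 30 h were used, so a change that needs irradiation and one that comes with time in culture cannot be told apart.

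The count depends on single libraries. It was 94 without degron (−) 4 Gy 30 h replicate 1 and 241 without its replicate 2, 133 without degron (−) 4 Gy 48 h replicate 2, 140 and 112 without degron (++) 4 Gy 30 h replicates 1 and 2, and 148 and 167 without degron (++) 4 Gy 48 h replicates 1 and 2. It was 395 without degron (−) 4 Gy 48 h replicate 1. Each such fit leaves 1 library in a group, which is taken to vary like the other groups.

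The more negative contrasts included 16 of the 39 epithelial junction and identity genes and 8 of 26 basement membrane and integrin genes, beside 2.99% of all genes in that direction. Of the 375 genes with such contrasts, 353 came from the 4751 genes higher in degron (++) cells at 48 h. Of the 39 and 26 list members, 37 and 15 were higher there too. The share over all genes is therefore not a like background for these lists. LAMA3 had 38.8 and 42.8 FPKM in degron (−) cells at 48 h and 21.1 and 23.3 at 30 h, whereas degron (++) cells had 137 and 137 at 48 h and 154 and 153 at 30 h. The difference fell by 1.01 on the log2 scale between these times (SE 0.0796, limma adjusted p = 0.000894). LY6D, a surface protein of epithelial progenitors, had 5.26 and 5.8 FPKM in degron (−) cells at 48 h against 1.99 and 1.68 at 30 h, and its contrast was -1.28 (SE 0.117, limma adjusted p = 0.00169). In both genes the degron (−) libraries at 48 h lay above those at 30 h. S100A9, a calcium-binding alarmin, had 16.7 and 17.2 FPKM in degron (−) cells at 48 h and 6.2 and 7.22 at 30 h (contrast -1.18). ELF3 had 8.6 and 10.9 and 3.05 and 3.38 FPKM in the same libraries (contrast -0.99). TFF1, LETM2, RGS4 and OASL had contrasts of -1.32, -1.22, -1.01 and -0.99. That of TFF1 was close to the threshold (limma adjusted p = 0.0457). TFF1 was at 0.556 and 0.879 FPKM in degron (−) cells at 30 h, and its degron (++) replicates at 48 h had 6.54 and 9.92. KRT13 had a contrast of -1.15 that did not pass the test (adjusted p = 0.0963, limma).

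CDKN2A and MTAP, but not CDKN2B, also passed this contrast with more negative values. CDKN2A in degron (−) cells was 18.5% of its level in degron (++) cells at 48 h and 11.5% at 30 h, both with 4 Gy, and 16.2% at 48 h with 0 Gy, and MTAP was 29%, 17% and 22.5%. Their contrasts were -0.64 (adjusted p = 0.0336, limma) and -0.62 (adjusted p = 0.0159, limma). CDKN2B showed 16.8%, 9.71% and 12.1% (adjusted p = 0.332, limma). Whether the degron (−) libraries differ between the conditions in the share of cells that express these genes was not tested.

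Among the 70 genes with a more positive difference at 48 h, 48 were lower in degron (++) cells at that time and 12 higher, and in 66 the degron (++) level was higher at 48 h than at 30 h. TM7SF2, a sterol reductase of cholesterol synthesis, was at 4.48 and 3.91 FPKM in degron (++) and 8.59 and 9.36 in degron (−) cells at 30 h and at 8.86 and 9.32 against 8.86 and 9.56 at 48 h. Its difference of -0.94 at 30 h had thus gone to -0.02 at 48 h (0.08 after quantile normalization, contrast 0.93, SE 0.141, limma adjusted p = 0.0121). PRRX2, a mesenchymal homeobox gene, had 0.884 and 1.05 FPKM in degron (++) cells at 48 h and 0.175 and 0.382 at 30 h, against 12.1 and 9.81 at 48 h and 13.8 and 14.2 at 30 h in degron (−) cells. BCL3, a regulator of NF-kappaB, had a contrast of 0.68, and it was at 16.6 and 16.7 against 15.1 and 14.8 FPKM at 48 h, a difference of 0.15 that was -0.10 after TPM rescaling. FXYD3, a regulator of the sodium pump, was listed at 0 in both degron (−) libraries at 48 h and had 3.44 and 3.15 FPKM in degron (++) cells.

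Compared with unirradiated cells at 48 h, the difference at 4 Gy changed past the threshold for 18 genes (0.143%; 1723 at an unadjusted p under 0.05), with 5 more positive and 13 more negative, and 3 of the 18 were small nucleolar RNA genes. DKK1, a secreted WNT antagonist, had 77.7 and 78.2 FPKM in degron (++) cells at 4 Gy and 46 and 46.4 at 0 Gy, against 291 and 278 at 4 Gy and 261 and 252 at 0 Gy in degron (−) cells. Its difference was less negative at 4 Gy by 0.59 on the log2 scale (SE 0.047, limma adjusted p = 0.00562), and FHL2 and NME4 had contrasts of 0.64 and 0.36. NNMT, a methyltransferase of nicotinamide, was at 2.54 and 2.57 FPKM at 4 Gy and 1.68 and 1.56 at 0 Gy in degron (−) cells, and at 23.6 and 22.4 and then 27.3 and 27.9 in degron (++) cells (contrast -0.70, SE 0.0859, limma adjusted p = 0.0347). NNMT was thus higher at 4 Gy in the degron (−) libraries. ANPEP, an aminopeptidase, was at 3.01 and 3.49 FPKM in degron (++) cells at 4 Gy and 5.88 and 5.32 at 0 Gy, and at 155 and 148 at 4 Gy and 113 and 123 at 0 Gy in degron (−) cells, a contrast of -1.0. A total of 12 genes passed both this test and that between the times; the 2 tests share the libraries at 4 Gy and 48 h.

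This count was lower still without single libraries. It was 0 without degron (++) 0 Gy 48 h replicate 2 and 3 without its replicate 1, 1 and 3 without degron (++) 4 Gy 48 h replicates 1 and 2, 4 without degron (−) 4 Gy 48 h replicate 2, and 5 and 1 without degron (−) 0 Gy 48 h replicates 1 and 2. It was 15 without degron (−) 4 Gy 48 h replicate 1. DKK1 passed in 7 of these 8 fits, and NNMT, ANPEP, FHL2 and NME4 in 0. The split also moved with the scaling, to 5 more positive and 41 more negative contrasts after quantile normalization and 4 and 28 after TPM rescaling, and it was 4 and 3 with only the libraries compared.

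**Figure D5:**
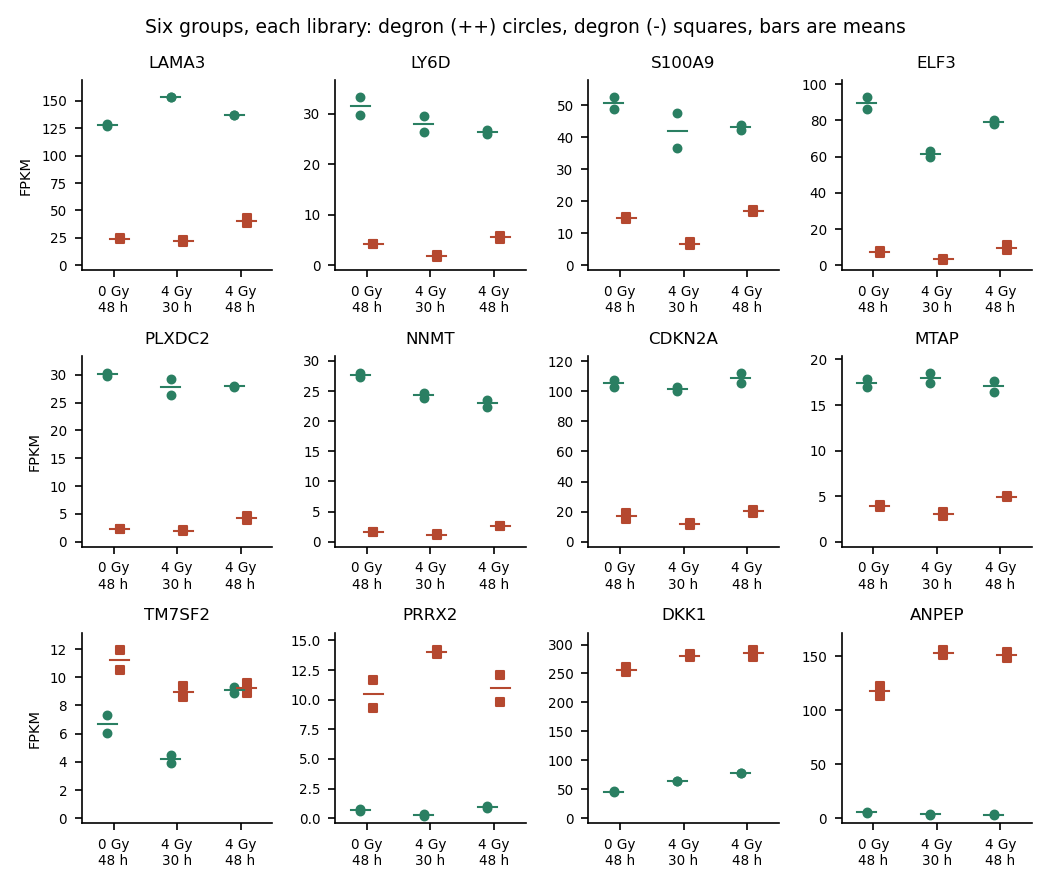
FPKM (vertical axes, linear scale) in each of the 12 libraries at 0 Gy 48 h, 4 Gy 30 h and 4 Gy 48 h for 12 genes (circles, degron (++); squares, degron (−); bars, mean of 2 libraries). In degron (−) cells LAMA3, LY6D, ELF3, CDKN2A and MTAP are lowest at 4 Gy 30 h and highest at 4 Gy 48 h, and TM7SF2 shows overlapping populations at 4 Gy 48 h.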

How the data were processed

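Total RNA of PANC-1 cells was sequenced as stranded mRNA libraries. The authors deposited FPKM per gene symbol and library; the submitters' processing notes name hg19, TopHat2 2.1.1, Bowtie2 2.2.8, SAMtools 0.1.18 and Cuffdiff 2.2.1, and the annotation is not given in the sources used here. The sum of FPKM is left free, so a few very abundant genes can shift the rest. Steps between low FPKM gave no whole reads (20.9% to 25.5% of genes within 5% of the commonest step).

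Here, log2(FPKM + 1) of all 12 libraries was fitted as 6 group means with limma 3.58.1 (R 4.3.3; lmFit, eBayes with trend), which was tested on simulated data, and for low genes this scale makes fold changes smaller than the ratio of FPKM. Genes needed FPKM of at least 1 in at least 2 of the 4 libraries; the threshold was an adjusted p under 0.05. Figures were drawn with matplotlib 3.10.9.

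Named genes were, among those past the threshold without overlap, the 10 largest in each direction, the 5 largest in each direction at a mean of at least 100 FPKM, up to 4 per list and direction plus members with defining roles, the genes of the study's table, and up to 8 per direction for each contrast of differences; small or uncharacterised RNA genes were left out of all but the lists and the table, and some genes are not reported here. The genes, lists and libraries were chosen with earlier results of these data known.

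Alternatives were a pseudocount of 0.1, no filter, a filter at FPKM 5 or over all 12 libraries, quantile normalization, TPM rescaling, no trend, the replicate number as a block, only the libraries compared, and leaving out each library.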

Additional observations from a re-analysis of the deposited data

Results flagged for a closer look

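The difference between degron (++) and degron (−) cells was itself tested across conditions, and 445 genes between 48 h and 30 h with 4 Gy, and 18 genes between 4 Gy and 0 Gy at 48 h, were past the threshold (limma, adjusted p under 0.05). These are the results whose contrast differs between groups of libraries.

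Between the times, the difference at 48 h minus that at 30 h was more positive for FXYD3 (1.08), PRRX2 (0.96), TM7SF2 (0.93), PALM3 (0.73), BCL3 (0.68), RAB26 (0.68), LXN (0.66) and RNF215 (0.64) on the log2 scale. FXYD3 was listed at 0 in both degron (−) libraries at 48 h, so its size depends on the pseudocount. The difference was more negative at 48 h for TFF1 (-1.32), LY6D (-1.28), LETM2 (-1.22), S100A9 (-1.18), LAMA3 (-1.01), RGS4 (-1.01), OASL (-0.99) and ELF3 (-0.99).

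Between the doses, the difference at 4 Gy minus that at 0 Gy was more positive for FHL2 (0.64), DKK1 (0.59) and NME4 (0.36). The more negative values were those of ANPEP (-1.0), ALPL (-0.88), PODXL (-0.76), PLXDC2 (-0.75), COL12A1 (-0.72), NNMT (-0.70) and TDRD7 (-0.64). ALPL was listed at 0 in both degron (++) libraries at 4 Gy and 48 h, so its size depends on the pseudocount.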

How the results depend on the processing

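The count of genes that differed at 4 Gy and 48 h stayed within 1.5 times of 9767 under each alternative tried (9005 to 9154 with each of the 4 libraries left out). The time contrast (445 genes) gave 273 without a filter, 237 after TPM rescaling, 251 with only the libraries compared and 94 to 395 with each library left out. The dose contrast (18 genes) gave 9 without a filter, 10 with the filter over all 12 libraries, 46 after quantile normalization, 32 after TPM rescaling, 7 with only the libraries compared and 0 to 15 with each library left out. The replicate numbers are not tied to a shared culture by any label, and the correlation of replicate differences was 0.179 between the 4 Gy 48 h groups and -0.039 to 0.179 over all pairs of groups, so they were taken as numbers only. With the replicate block, 9700, 319 and 3 genes passed, and the 3 of the dose contrast were all more positive.

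Directions at 4 Gy and 48 h turned for TM7SF2 (0.078 after quantile normalization, -0.066 to 0.033 with each library left out), BCL3 (-0.10), PODXL (-0.068) and ODC1 (-0.12), the last 3 after TPM rescaling, and for KRT19 (-0.036 after TPM rescaling, -0.10 after quantile normalization). Among named genes that did not pass the test, MDM2 (-0.15, TPM), GRHL1 (0.24, quantile) and KRT15 (0.061, quantile) turned too. List medians turned for cytokines and chemokines (-0.32 at a filter of 5), p53 targets (0.030, quantile) and NRF2 genes (-0.011, quantile; -0.20, TPM). After TPM rescaling those of proteasome subunits (-0.13), S phase (-0.19), DNA repair (-0.19) and BCL2 family genes (-0.10) turned as well. The median of glycolysis genes (-0.01) was 0.087 at a filter of 5, 0.016 after quantile normalization and 0.0079 to 0.057 with each library left out. TPM rescaling moved the median of all genes by -0.24; the cause of the other changes was not tested.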
